A study of Mus musculus with 2 samples.

Results

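Cytokine signalling through JAK kinases and STAT transcription factors was examined in mouse spleen through 46 genes listed by name. They comprise 6 STAT genes, 4 JAK genes, 8 genes of the SOCS family, 4 PIAS genes, 4 phosphatase genes, 18 cytokine receptor genes and the target genes Bcl3 and Pim1. All 46 had a probe on the array, 66 probes in all, and 44 were above background, out of 13716 genes above background among 20655 named on the array. RNA came from spleens of healthy, untreated male mice and was hybridised to 1 Agilent one-colour array per genotype, Loxl3+/+ (wild type) and Loxl3-/- (knockout), with no other allele, treatment, strain or age given in the labels and no statement of how many animals each RNA came from. The question the comparison addresses is whether these genes differ with Loxl3, which encodes a lysyl oxidase family enzyme that has been described as deacetylating STAT3.

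In this pathway a cytokine brings receptor chains together, the JAK kinases bound to those chains phosphorylate the receptor and then a STAT protein, and STAT dimers enter the nucleus and switch on genes. Among the genes switched on are those of the SOCS proteins, which inhibit the receptor and its kinases and so close a feedback loop. Phosphatases and PIAS proteins restrain the pathway at other points. In the spleen the pathway carries the signals of interleukins and interferons to T cells, B cells, NK cells and myeloid cells.

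With 1 array per genotype there is no replicate, so no test was possible, and every value describes these 2 arrays. Signals are the scanner software's background-corrected intensities. Those of the knockout-labelled array were multiplied by 1 factor, a shift of 0.52 on the log2 scale, so that the 75th percentile of all probes was equal on both arrays, and all its signals below are given after that scaling unless called unscaled. A difference is the log2 value from the knockout-labelled array less that from the wild-type array. The error after ± is the software's own for the spot, carried to the difference, and holds no variation between animals. The Loxl3 probe read 117 in wild type and 86.9 after scaling in the RNA labelled knockout, a difference of −0.43 ± 0.30 (124.8 before scaling). The sources used here do not say whether it lies in the deleted part, so it gives no firm check of the label.

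The members were mostly close to equal on both arrays. Of the 44, 39 differed by less than 1.5-fold. Il2rg, encoding the receptor chain shared by the interleukin-2, 4, 7, 9, 15 and 21 receptors, was the only member past 1.5-fold in the upward direction, being 2.70-fold higher in the RNA labelled knockout. Il12rb1, Stat5a, Socs1 and Il2rb were at least 1.5-fold lower, and Il12rb1 alone reached 2-fold, with 1 of its 2 probes. A share of 2.27% of the measured members was thus 1.5-fold higher, against 8.04% of all measured genes, and 9.09% was 1.5-fold lower, against 9.48%. In counts, 1103 of the 13716 genes were 1.5-fold higher and 1300 lower, a split that became 842 and 1920 with median scaling, 1655 and 781 with scaling on probes detected on both arrays, and 523 and 990 with normexp background correction. At 2-fold, 2.57% of all genes were higher and 2.26% lower, against 1 member each way. Differences over 2 software errors were found in 14 members (31.8%) and in 27.3% of all genes. The members' median was −0.13, beside −0.09 for all genes, and it turned positive, at 0.01 to 0.06, with the 75th percentile taken over probes detected on both arrays, by quantile normalization, with the loess trend removed, and in the authors' deposited table. Scaling on probes detected on both arrays moved the median of all genes from −0.09 to 0.05. Relative to the median of all genes, the members' median lay between −0.04 and 0.06 under every setting.

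**Figure D1:**
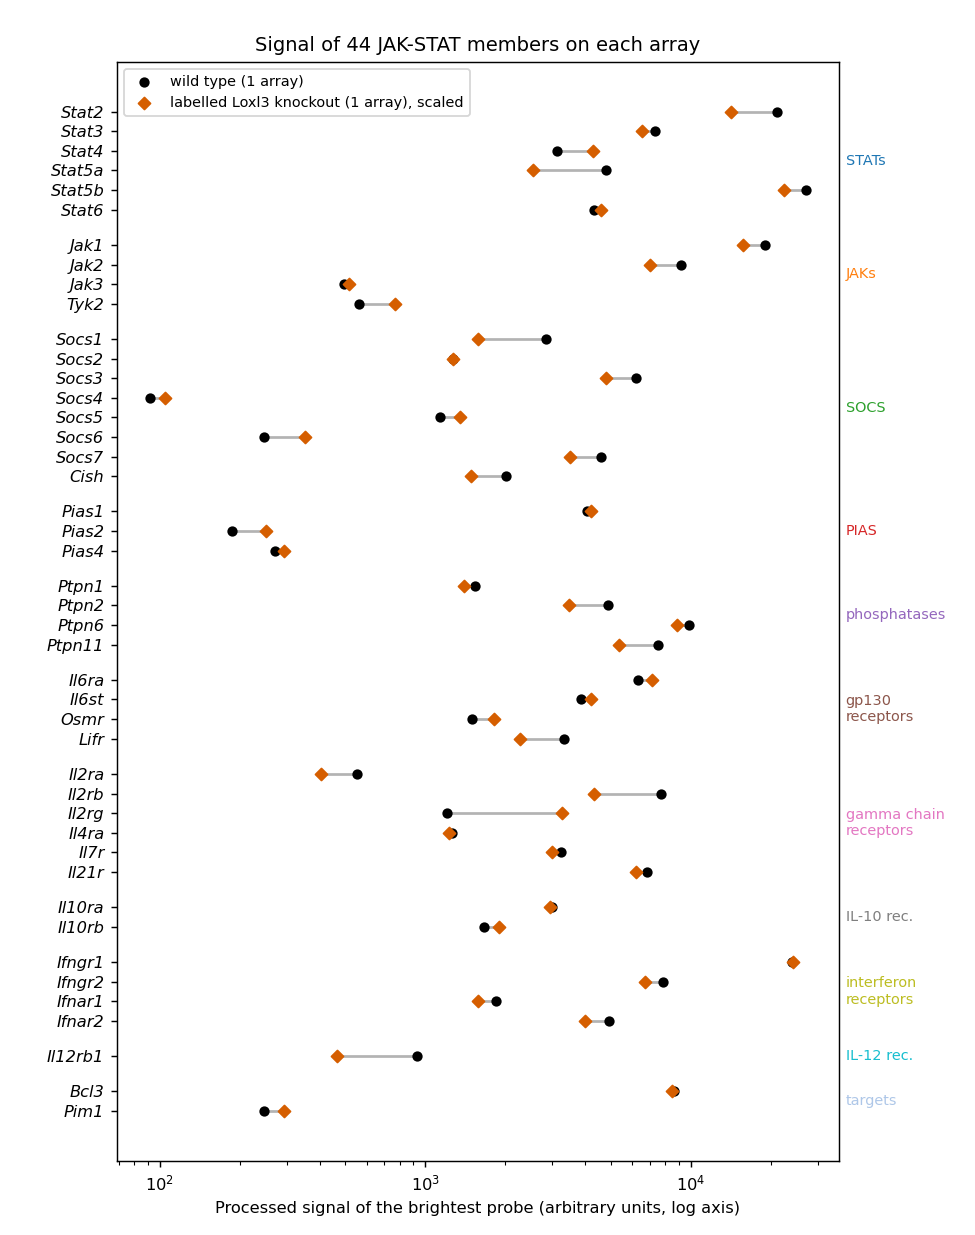
Processed signal (log axis, arbitrary units) of the brightest probe of each of the 44 members above background, 1 array per genotype, black circles for wild type and orange diamonds for the knockout-labelled array after scaling. The line between the points is long for Il2rg, which runs from 1208.5 to 3260.2, and short for most others; levels of different genes come from different probes and are not comparable.

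The promoters of 4 members are shown, picked from those that hold motifs through which STAT complexes act. They belong to 2 genes lower on the knockout-labelled array (Socs1 and Stat2), 1 higher (Stat4) and the classical STAT3 feedback gene (Socs3). Each is the 250 bases before a RefSeq start site on GRCm38.p6, read 5′ to 3′ on the gene's strand. Capitals mark matches on either strand to TTCNNNGAA, the core bound by most STAT dimers, to TTC and GAA with 4 bases between them (the STAT6 form), or to GAAA, 2 bases and GAAA, a motif of interferon response elements, to which STAT2 is recruited together with IRF9. They lie at chr16:10785537-10785786 (minus strand) for Socs1, chr10:128270248-128270497 (plus) for Stat2, chr1:52007990-52008239 (plus) for Stat4 and chr11:117969367-117969616 (minus) for Socs3.
Socs1: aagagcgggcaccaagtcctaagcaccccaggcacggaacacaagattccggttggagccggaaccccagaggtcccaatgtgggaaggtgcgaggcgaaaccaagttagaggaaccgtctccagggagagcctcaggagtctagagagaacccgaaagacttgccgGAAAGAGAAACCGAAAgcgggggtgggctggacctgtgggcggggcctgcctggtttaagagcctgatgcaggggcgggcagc
Stat2: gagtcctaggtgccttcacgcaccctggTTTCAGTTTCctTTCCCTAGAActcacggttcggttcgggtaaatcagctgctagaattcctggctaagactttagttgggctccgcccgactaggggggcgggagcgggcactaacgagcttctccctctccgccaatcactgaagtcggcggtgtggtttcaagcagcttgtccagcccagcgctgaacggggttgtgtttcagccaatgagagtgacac
Stat4: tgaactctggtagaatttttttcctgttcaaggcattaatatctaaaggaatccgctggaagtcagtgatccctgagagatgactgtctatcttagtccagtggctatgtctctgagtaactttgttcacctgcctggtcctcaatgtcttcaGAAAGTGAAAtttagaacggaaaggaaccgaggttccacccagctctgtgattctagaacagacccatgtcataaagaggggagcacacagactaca
Socs3: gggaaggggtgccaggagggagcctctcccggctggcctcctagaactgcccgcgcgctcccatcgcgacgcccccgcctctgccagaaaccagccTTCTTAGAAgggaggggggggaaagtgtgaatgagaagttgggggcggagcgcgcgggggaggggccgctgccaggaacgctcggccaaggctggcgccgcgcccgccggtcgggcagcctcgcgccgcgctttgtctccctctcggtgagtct

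The Socs1 stretch holds 2 overlapping matches to the interferon motif, starting 83 and 77 bases before the start site. Stat2 has 1 such match, on the other strand and 222 bases before the start, followed by a STAT6-form match at 210 bases. In Stat4 the match lies 97 bases before the second of its 2 listed start sites. The Socs3 promoter carries TTCTTAGAA 154 bases before its start. Promoter windows were listed for 35 members (41 windows). The interferon motif occurred in windows of 3 of these genes, the core STAT motif in 4 (Socs3, Il7r, Ifnar2 and Il12rb2) and the STAT6 form in 2 (Stat2 and Ifngr2). Of the 41 member windows, 7.32% hold the interferon motif, 9.76% the core STAT motif and 4.88% the STAT6 form. Of all 32851 windows of the same length, 2.98% hold the interferon motif, 7.02% the core STAT motif and 5.85% the STAT6 form. A match describes the letters only and is no evidence of binding in these spleens. Whether a motif goes with a difference between the arrays was not tested.

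Stat3, the STAT of interleukin-6, interleukin-10 and interleukin-21 signalling, was read by 2 probes that disagreed in sign. The brighter probe gave 7291.4 in wild type and 6537.6 in the RNA labelled knockout, a difference of −0.16 ± 0.20. This probe was printed 10 times on each array, and 2 of its spots on the knockout-labelled array were set aside as outliers by the software. Over the 8 spots left on both, the wild-type signals had a lowest value of 6679, a median of 7165 and a highest of 7648.9. The scaled signals of the knockout-labelled array had a lowest value of 5947.1, a median of 6686.1 and a highest of 6877.8. The ranges overlap, and every one of the 8 spots was lower on the knockout-labelled array, by −0.06 to −0.26, with a mean of −0.14 and an SD of 0.07 that is technical. The dimmer probe, annotated to another Stat3 transcript, gave 155.1 and 225.9, a difference of 0.54 ± 0.25. The probes thus differ from each other by 0.70 ± 0.32 on the log2 scale, a gap that no common scaling factor changes. The brighter probe's own difference turned positive under 3 of the 9 processing alternatives that read this probe, up to 0.06, and the median of both probes was 0.19, so these arrays give Stat3 no settled direction.

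**Figure D2:**
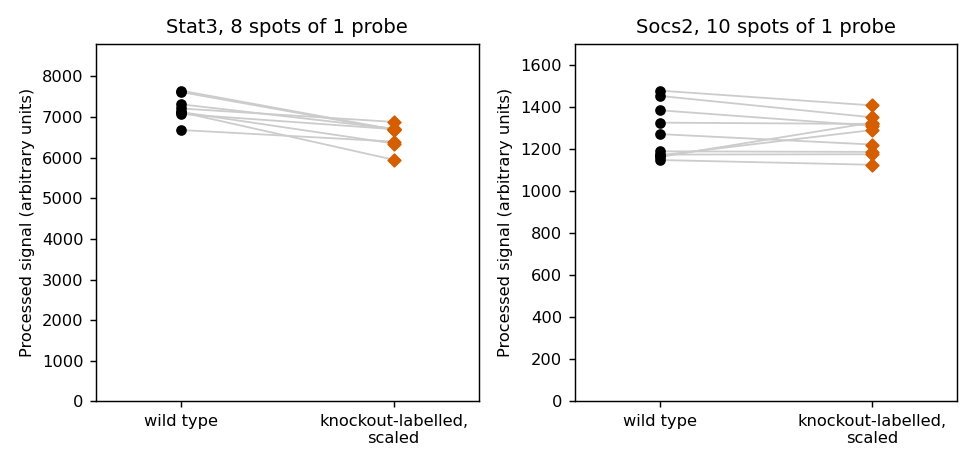
Processed signal (arbitrary units, axis from 0) of the repeated spots of 1 Stat3 probe (8 spots) and 1 Socs2 probe (10 spots); each grey line joins the same spot position on both arrays. All 8 Stat3 lines slope down by a small amount after scaling, while Socs2 lines slope both ways around a mean difference of −0.00; over the 9 processing alternatives that read these probes, the sign for Stat3 changes under 3 and that for Socs2 under 4.

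Stat5a was the STAT gene with the clearest difference. It encodes 1 of the pair of near-identical STAT5 proteins that act downstream of interleukin-2, interleukin-7, GM-CSF and erythropoietin. Its single probe read 4766.4 in wild type and 2541.7 in the RNA labelled knockout, or −0.91 ± 0.20. Of the 10 alternatives, both filters on dim probes and the median of probes return the main value for such a gene with 1 detected probe. Keeping outlier spots gave −0.91, and the deposited table nearly repeats quantile normalization (both −0.76). Stat5a stayed at least 1.5-fold lower under all 10 (−1.06 to −0.74), and only 3.03% of measured genes were as low or lower. Its neighbour and close relative Stat5b read 27041.4 and 22328.0 with 1 probe and 4123.8 and 3544.7 with the other, at −0.28 and −0.22. The pair differed from each other by 0.63 ± 0.29, a gap that common scaling leaves as it is and that became 0.83 with the loess trend removed, and Stat5b turned positive under 3 alternatives. Because the genes are so alike, probes may share signal.

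Stat2, the STAT of the type I interferon complex, read 21010.9 and 14189.6, a difference of −0.57 ± 0.20 that lies just inside 1.5-fold (0.585 on this scale), ranged from −0.66 to −0.24 over the alternatives and passed 1.5-fold under 1. Stat4, which carries interleukin-12 signals in T and NK cells, went the other way, from 3122.3 to 4280.2 (0.46 ± 0.20), stayed above 0 under all 10 alternatives and passed 1.5-fold under 4. Stat4 and Stat5a thus lay 1.36 ± 0.29 apart, or 2.57-fold. Stat6, the STAT of interleukin-4 and interleukin-13, read 4322.4 and 4589.1 with its brightest probe (0.09 ± 0.20, negative under 1 alternative). Its 2 dim probes differed from each other, at 135.7 and 137.4 (0.02 ± 0.28) for one and at 108.6 and 312.1 (1.52 ± 0.28) for the other.

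Among the kinases, Jak1 and Jak2 lay below 0 and Tyk2 above it, all within 1.5-fold by their main values. Jak1, used by nearly all cytokine receptors of these families, read 19071.2 and 15721.3 (−0.28 ± 0.20), and its sign turned under 3 alternatives. Jak2, the kinase of interferon gamma, erythropoietin and growth hormone receptors, read 9153.4 and 6998.1 (−0.39 ± 0.20) and kept its sign. Tyk2, the partner kinase at the type I interferon and interleukin-12 receptors, read 562.1 and 768.2 (0.45 ± 0.21). It kept its sign under all 10 alternatives and passed 1.5-fold under 1. Tyk2 and Jak2 were 0.84 ± 0.29 apart, reduced to 0.60 with the loess trend removed. Jak3, which binds the common gamma chain, read 493.6 and 513.3 (0.06 ± 0.21, negative under 2 alternatives), with its second probe at 0.65.

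Of the 8 SOCS family genes, 7 lay within 1.5-fold by their main values, and Socs1 did not. Socs1, a potent inhibitor of interferon gamma signalling, read 2855.1 in wild type and 1581.9 in the RNA labelled knockout, or −0.85 ± 0.20. It was at least 1.5-fold lower under all 10 alternatives (−0.95 to −0.71), and 3.71% of measured genes were as low. Cish and Socs3, the other members induced most readily by STAT5 and STAT3, read 2014.7 and 1486.3 (−0.44 ± 0.20) and 6210.0 and 4779.1 (−0.38 ± 0.20), and both stayed below 0 under every alternative without reaching 1.5-fold. Socs1 was lower than Cish by a further 0.41 ± 0.29 and than Socs3 by 0.47 ± 0.29, gaps under 2 software errors.

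Socs2, a regulator of growth hormone signalling that STAT5 also induces, was near 0 with its brightest probe. That probe printed 10 times had wild-type signals with a lowest value of 1149.2, a median of 1231.6 and a highest of 1479.7. On the knockout-labelled array the lowest was 1126.6, the median 1302.0 and the highest 1409.1. The ranges overlap almost entirely, the mean difference was −0.00 with an SD of 0.10 over the 10 spots, and other processing moved this probe to between −0.10 and 0.14. The gene's other probes gave 0.02 ± 0.21 and 0.22 ± 0.21. Socs1 and Socs2 were 0.85 ± 0.29 apart. Socs7 read 4572.3 and 3510.5 (−0.38 ± 0.20). Socs4, Socs5 and Socs6, less studied members that have been tied to growth factor receptors, were on the other side. Socs6 read 247.3 and 353.0 (0.51 ± 0.22), and its dimmer probe, detected in the RNA labelled knockout only, gave 0.80 ± 0.54. Socs5 read 1137.8 and 1352.4 (0.25 ± 0.20) and Socs4 read 91.6 and 104.8 (0.19 ± 0.28). Socs4 turned negative under 1 alternative, and Socs5, Socs6 and Socs7 kept their signs, with Socs6 past 1.5-fold under 2 alternatives.

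The phosphatases, which remove the activating phosphate from receptors, JAKs and STATs, all lay below 0, but Ptpn6 turned positive under 3 alternatives and Ptpn1 under 1. Ptpn11, encoding SHP2, read 7504.5 and 5347.8 (−0.49 ± 0.20). Ptpn2, a phosphatase of JAK1 and JAK3, read 4881.6 and 3473.0 with its brightest probe (−0.49 ± 0.20) and had further probes at 0.48 and −0.15. It passed 1.5-fold under 1 alternative. Ptpn6, encoding SHP1 of blood cells, read 9851.8 and 8840.6 (−0.16 ± 0.20), and Ptpn1 read 1541.3 and 1395.2 (−0.14 ± 0.20). The PIAS genes, whose proteins bind STATs and act as SUMO ligases, lay at 0.05 ± 0.20 for the brightest Pias1 probe (4069.4 and 4216.7), 0.42 ± 0.24 for Pias2 (187.3 and 251.2) and 0.11 ± 0.22 for Pias4 (272.3 and 293.0). Pias1 had further probes at −0.03 ± 0.20 and, in a dim probe read at 122.6 and 214.5, at 0.81 ± 0.28. Pias1 and Pias4 turned negative under 1 alternative each. Pias3, named for its binding to STAT3, stayed too close to background for a value on both arrays.

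**Figure D3:**
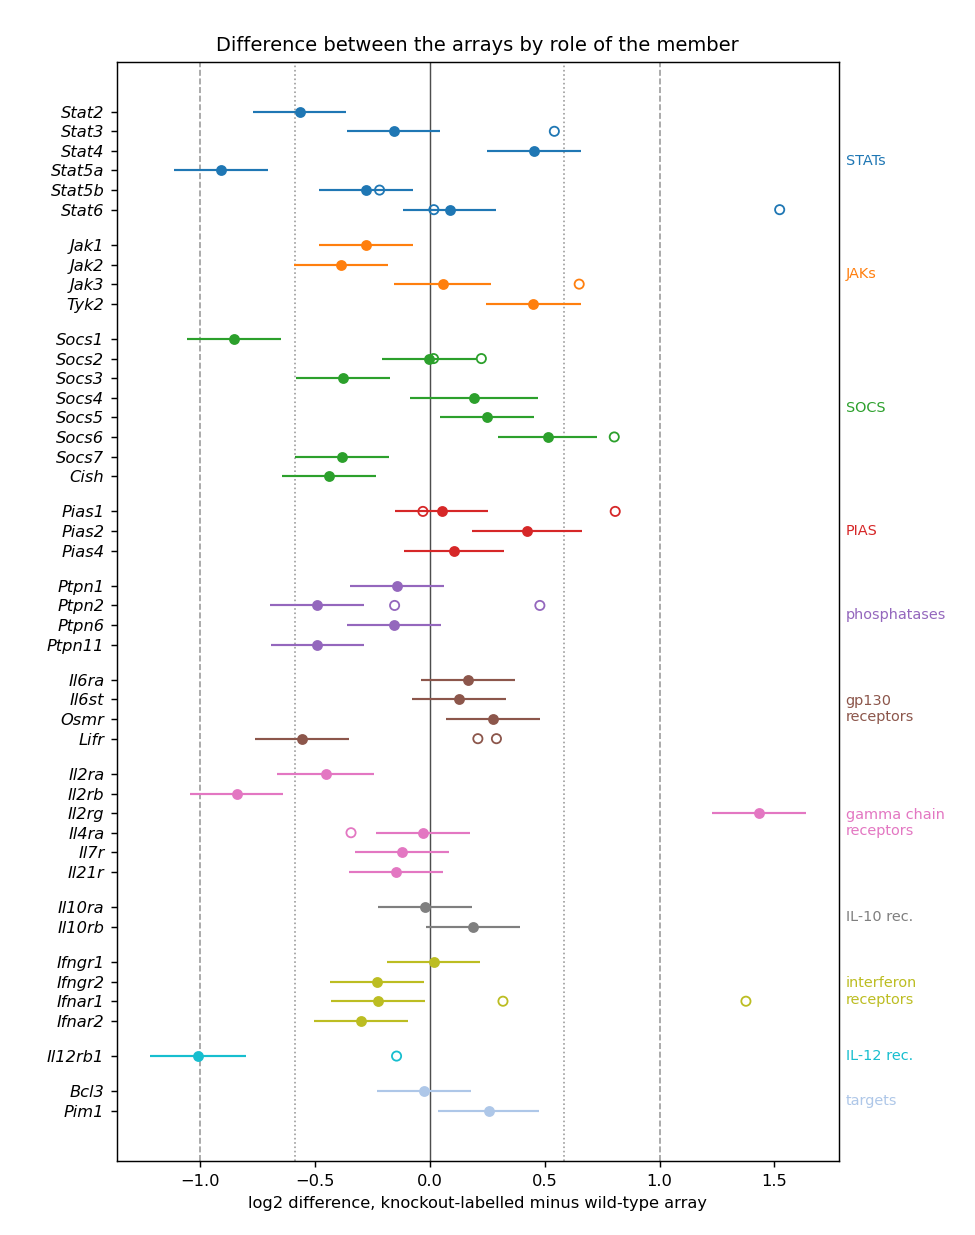
Log2 difference between the arrays (knockout-labelled minus wild type) for the 44 members, grouped by role; filled points are the brightest probe with the software's error, open circles are other detected probes, and dotted and dashed lines mark 1.5-fold and 2-fold. Among the filled points, Il2rg stands alone on the right at 1.43, with Il12rb1, Stat5a, Socs1 and Il2rb at −1.01 to −0.84 on the left. Open circles lie mostly to the right of their filled point, and those of 1 dim Stat6 probe (1.52) and 1 dim Ifnar1 probe (1.38) lie about as far right as Il2rg. Of the 44 members, 19 change sign under at least 1 processing alternative, while Il2rg, Il12rb1, Stat5a, Socs1 and Il2rb do not.

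The receptors of the common gamma chain family were the group with the widest spread. Il2rg itself read 1208.5 in wild type and 3260.2 in the RNA labelled knockout (4683.8 before scaling), a difference of 1.43 ± 0.20. It is measured by a single probe with 1 spot per array. The value ranged from 1.34 to 1.58 over the 10 alternatives, and 1.17% of all measured genes were as high or higher. Il2rb, the beta chain of the interleukin-2 and interleukin-15 receptors, read 7713.5 and 4307.1, or −0.84 ± 0.20 (−0.94 to −0.59 over the alternatives). Il2ra, the alpha chain that marks regulatory and activated T cells, read 554.5 and 405.3 (−0.45 ± 0.21).

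The 3 chains of the high-affinity interleukin-2 receptor lay on both sides of 0. Il2rg lay 2.27 ± 0.29 above Il2rb, a 4.83-fold change in their ratio, and 1.88 ± 0.29 above Il2ra. These gaps do not depend on a common scaling factor, and with the loess trend removed they were 2.19 and 2.04. The private chains that pair with the common gamma chain for other cytokines were near 0 and changed sign with the processing. Il7r, of the interleukin-7 receptor on T cells, read 3246.9 and 2988.5 (−0.12 ± 0.20). Il21r read 6851.0 and 6194.2 (−0.15 ± 0.20), and Il4ra read 1257.1 and 1231.4 (−0.03 ± 0.20), with its second probe at −0.34. Il2rg lay 1.46 to 1.58 above each of these 3 chains.

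Il12rb1, the chain shared by the interleukin-12 and interleukin-23 receptors, had 2 probes of 1 sign and unequal size. The brighter read 932.8 and 463.4, a difference of −1.01 ± 0.21, and the other read 587.3 and 531.4, a difference of −0.14 ± 0.21. With the median of its probes the value was −0.58, under 1.5-fold, and it was also under 2-fold with normexp (−0.81) and with scaling on probes detected on both arrays (−0.86). Il12rb2, the other chain of the interleukin-12 receptor, was too close to background for a value with both of its probes.

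The receptors of the gp130 family lay near 0. Il6ra, the interleukin-6 binding chain, read 6332.2 and 7103.7 (0.17 ± 0.20), and Il6st, encoding gp130 itself, read 3840.9 and 4195.9 (0.13 ± 0.20), with only 0.04 ± 0.29 between them. Osmr, the oncostatin M receptor chain, read 1500.9 and 1815.8 (0.27 ± 0.20). These 3 stayed above 0 under every alternative and inside 1.5-fold. Lifr, the leukaemia inhibitory factor receptor chain, read 3324.6 and 2261.0 with its brightest probe (−0.56 ± 0.20), while its 2 dimmer probes gave 0.29 and 0.21, so its sign depends on the probe read. It passed 1.5-fold under 2 alternatives.

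The interferon receptor chains also lay within 1.5-fold. Ifngr1, the ligand-binding chain for interferon gamma, read 24018.3 and 24301.2 (0.02 ± 0.20), and its partner Ifngr2 read 7841.7 and 6683.7 (−0.23 ± 0.20). Ifnar2 read 4899.5 and 3986.3 (−0.30 ± 0.20). Ifnar1 read 1836.0 and 1572.3 with its brightest probe (−0.22 ± 0.20) and had further probes at 0.32 and 1.38, the last of them detected in the RNA labelled knockout but not in wild type. Ifngr1 and Ifnar1 changed sign under 1 alternative each, and Ifngr2 and Ifnar2 stayed below 0. Of the interleukin-10 family chains, Il10ra read 2988.3 and 2943.1 (−0.02 ± 0.20, above 0 under 5 alternatives), and Il10rb, shared with interleukin-22 and lambda interferons, read 1662.8 and 1896.7 (0.19 ± 0.20).

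Both target genes were close to equal. Bcl3, an atypical IκB family protein induced by STAT3, read 8668.2 and 8517.3 (−0.03 ± 0.20, with changing sign over the alternatives). Pim1, a survival kinase gene induced by STAT3 and STAT5, read 246.0 and 293.8 (0.26 ± 0.22) and stayed above 0.

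The difference between the arrays was lower at higher signal, over all genes and over the members. Genes with a mean signal under 500 had a median of 0.07, those from 500 to 2000 a median of −0.05, those from 2000 to 8000 a median of −0.19 and those above 8000 a median of −0.34. Members in the same ranges had medians of 0.22 (6 genes), 0.03 (12), −0.23 (19) and −0.28 (7). Among 12 members with several detected probes, 15 of 18 further probes lay above the brightest, with a median gap of 0.57, and over all genes 71.2% of further probes did, with a median gap of 0.24. For 6 members (Stat3, Socs2, Pias1, Ptpn2, Lifr and Ifnar1) the detected probes had both signs. The part of signal level in any one difference was not tested, beyond the loess values given above.

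Of the other genes of the pathway, 86 of 114 on 4 lists were measured, with 10 past 1.5-fold upward (11.6%, against 8.04% of all genes) and 20 past it downward (23.3%, against 9.48%), and their median was −0.04. The 4 lists were chosen with earlier results of these data known, so these shares describe the lists and are no independent finding about the pathway. Other cytokine receptors had 8 of 24 measured genes (33.3%) at least 1.5-fold lower and 2 (8.33%) higher. Il22ra2, a decoy receptor of interleukin-22, read 705.5 and 252.5 (−1.48 ± 0.21), and Il5ra, of the interleukin-5 receptor of eosinophils and some B cells, read 1306.7 and 606.4 (−1.11 ± 0.21). Lepr, the leptin receptor, read 414.4 and 928.0 (1.16 ± 0.21), with other probes at 0.50 and 0.81. Of 36 ligand genes 14 were above background, with 2 (14.3%) at least 1.5-fold higher, 4 (28.6%) lower and none at 2-fold. Il12a, 1 of the 2 higher ligands, was above background in the RNA labelled knockout only (52.0 and 88.7, 0.77 ± 0.47). It is also counted among the 10 higher pathway genes. Among adaptors and regulators, 4 of 21 (19.0%) were higher and 3 (14.3%) lower. Pik3r1, the regulatory subunit of PI3-kinase, read 302.1 and 633.3 (1.07 ± 0.21). Among 27 other target genes 2 (7.41%) were higher and 5 (18.5%) lower, led by the adhesion gene Icam1 (148.1 and 559.4) and the granule gene Lcn2 (3445.0 and 708.7), which is also a neutrophil marker.

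**Figure D4:**
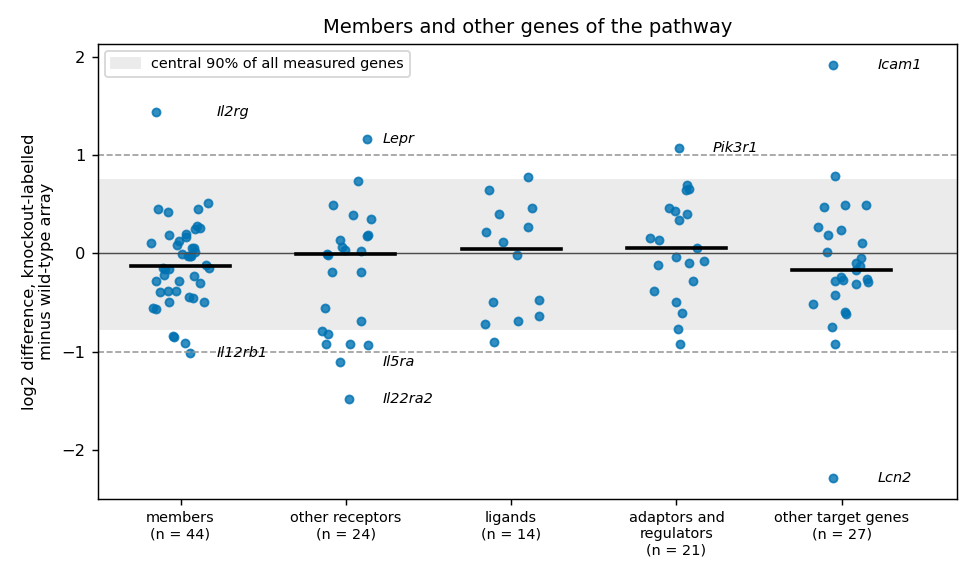
Log2 difference between the arrays for the members and for 4 lists of other pathway genes; each point is a gene, black bars are medians, dashed lines mark 2-fold and the grey band holds the central 90% of all measured genes. Genes at 2-fold or more are named, Il2rg and Il12rb1 among the members, and the medians of all 5 columns lie between −0.17 and 0.05. Another scaling factor shifts all 5 medians alike, as it moved the median of all genes from −0.09 to −0.19 or 0.05. The members' median and those nearer 0 therefore change sign with the scaling.

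Markers of several cell types also differed between the arrays. Over all measured genes, 8126 of 13716 lay below 0, and genes above 8000 in signal had a median of −0.34. A count of markers below 0 near that share therefore says little about a cell type. In bulk spleen, fewer cells of a type and less RNA per cell cannot be told apart. T cell markers (14 of 14 measured, 9 below 0, Cd247 above background in the RNA labelled knockout only) summed to 90955 in wild type and 80313 in the RNA labelled knockout, with a median difference of −0.08 that turned positive under 4 alternatives. B cell markers (10 of 10 measured, all detected on both arrays, 6 above 0) summed to 169275.3 and 139771.3, while their median difference was 0.21. NK markers (8 of 8, 6 above 0) summed to 22832.5 and 17985.5, and their median difference was 0.17, so sum and median differ in sign for both lists. The NK sum is mostly Gzma, at 16413.2 and 10983.1. Neutrophil and granulocyte precursor markers were lower in 16 of 16 and summed to 215776.1 and 61683.3. Megakaryocyte and platelet markers were lower in 8 of 8 measured of 9 (Gp1bb not above background), with a median of −1.57. Basophil and mast cell markers were lower in 5 of 5 measured of 7 (Ms4a2 and Fcer1a not above background), with a median of −1.42. Of these, Mcpt8 and Prss34 were above background in wild type only. The 3 basophil and mast cell markers above background on both arrays had a median of −0.68. Exocrine pancreas markers were higher in 15 of 15, from a sum of 19690.6 to 186221.5. Erythroid markers were lower in 6 of 9, with a median of −0.43. Macrophage and monocyte markers (9 of 10 measured, Ly6c2 without a probe, 6 below 0) summed to 120476.9 and 106182.2. Their median of −0.12 changed sign under some alternatives. Stroma markers (14 of 14, 9 above 0, Lum above background in the RNA labelled knockout only) summed to 56735 and 59994.5, with a median of 0.29. Housekeeping genes were lower in 8 of 10, with a median of −0.28. They ran from −0.61 (B2m) to 1.13 (Ywhaz, other probes at 0.78 to 0.91), with Actb at −0.55. The housekeeping median turned positive, at 0.04 to 0.08, in the deposited table, after loess and after quantile normalization. The part of these cell types in the members' values was not tested.

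**Figure D5:**
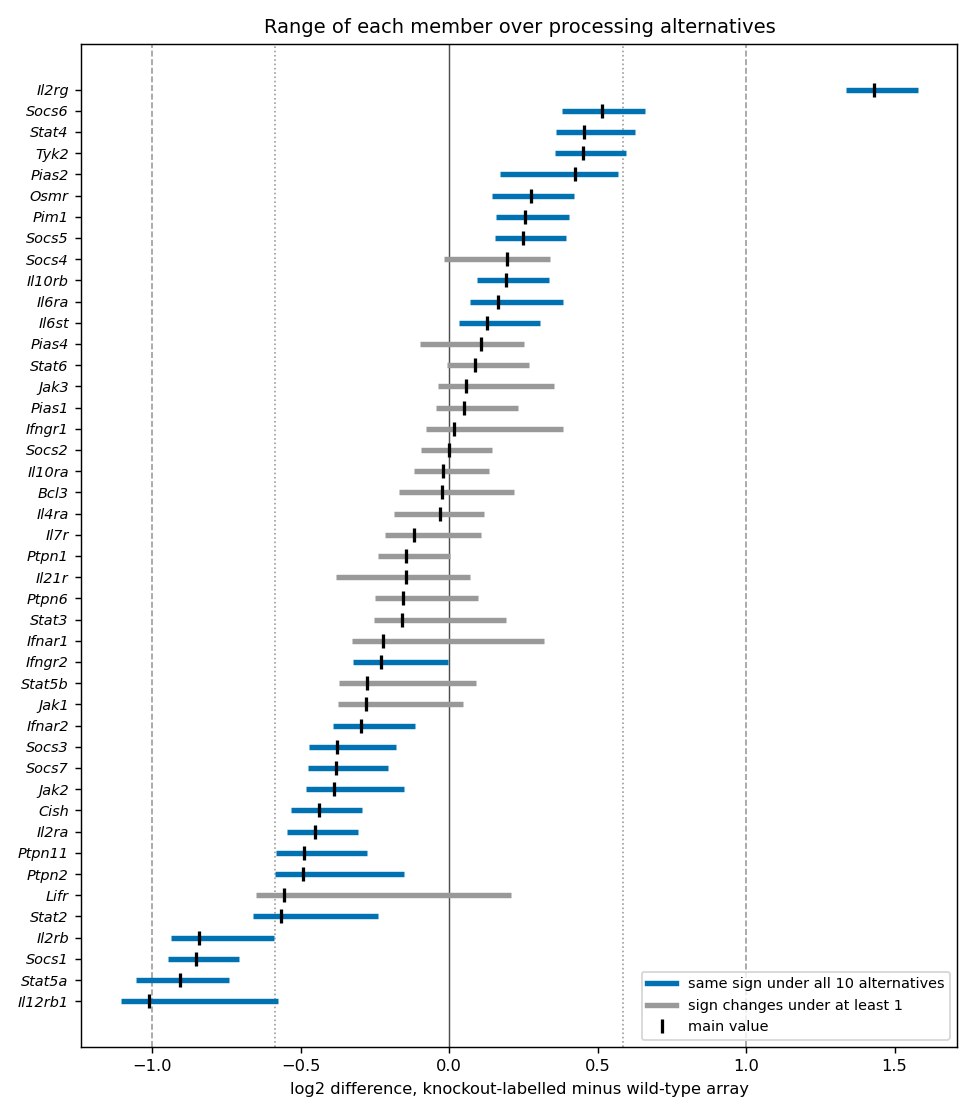
Range of the log2 difference of each member over 10 processing alternatives, with the main value as a black tick; blue bars keep 1 sign and grey bars change it, and dotted and dashed lines mark 1.5-fold and 2-fold. The sign was the same throughout for 25 members, 11 above 0 and 14 below, and Il2rg, Stat5a, Socs1 and Il2rb stayed past 1.5-fold under every alternative.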

How the data were processed

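Spleen RNA of 1 Loxl3 wild-type and 1 knockout-labelled group was measured on 1 Cy3 array each. The authors deposited scanner files whose values are linear intensity, made with Agilent Feature Extraction 11.0.1.1, per the file headers, on a design of build mm9. Both arrays came from 1 slide and 1 scan, per the file headers. The authors' deposited value table holds log2 values, and both columns have a median of 6.71. All but 33 of 39420 of its differences lay within 0.1 of quantile-normalized scanner differences, so its direction and scale were read from the values.

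Control spots and outlier-flagged spots (110 and 132) were left out, and none was saturated. Log2 signals of a probe's spots were averaged, and each array's 75th percentile (974.5 and 1400.0) was subtracted. Probe accessions were matched without versions to RefSeq (GRCm38.p6), which named 27226 of 39420 probes. A gene was read by its brightest probe well above background on at least 1 array. On the arrays 54.7% and 56.8% of probes were above background. The number of arrays limits the precision. Repeated spots of 269 probes (2555 spots) had a median SD of 0.11 for the difference, and the software's error had a median of 0.21 over genes. Neither holds variation between animals.

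With 0 residual degrees of freedom no test was run. Named were all 46 members, every Stat3 probe, probes of both signs, and other pathway genes at 2-fold. The members, lists and alternatives were chosen with earlier results of these data known. The normexp alternative (limma 3.58.1, offset 50) used the median spot signal in place of the mean. Gene values were checked on simulated data (Python 3.11.15, numpy 2.4.6). These held a constant gain and spot noise but no trend with signal, so the check does not cover the trend with signal given above. Array coordinates were not used.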

Additional observations from a re-analysis of the deposited data

How the results depend on the processing

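Each value was recomputed under 10 alternatives: 4 other scalings, normexp background correction, the authors' deposited table, the median of a gene's probes, 2 other filters on dim probes, and outlier spots kept. No member at 1.5-fold changed sign, and 399 of 440 member values stayed within the software's error of the main one. That share includes values that could not move. Both filters on dim probes returned the main value for every measured member, and the median of probes did so for the 32 members with 1 detected probe. Keeping outlier spots hardly moved most members. The deposited table nearly repeats quantile normalization (correlation of differences 0.9996). The 4 members at least 1.5-fold lower became 7 when the arrays were scaled on the median of all probes. Among all measured genes the number as low rose from 1300 to 1920 under that scaling. The 1 member at least 1.5-fold higher became 4 with scaling on probes above background on both arrays. Among all measured genes the number as high rose there from 1103 to 1655. The changes to 7 and to 4 thus went with a shift of all genes and say little about the members themselves. The count of higher members was 2 with quantile normalization, loess, the deposited table and the median over probes. Under these settings the number over all genes hardly changed. The 1 member at least 2-fold lower, Il12rb1, became 2 with median scaling and 0 with scaling on probes above background on both arrays and with the median over probes. With normexp the count stayed 1 but the member was Stat5a (−1.06), with Il12rb1 at −0.81. The cause was not tested. No paired analysis was possible because each group has 1 array, and no array could be left out. Dim members such as Socs4 have the largest errors, and Pias3 and Il12rb2 were not measured.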
